A study of Caenorhabditis elegans with 2 samples.

Results

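The spliceosomal and related small nuclear RNA (snRNA) genes of Caenorhabditis elegans were examined in a ChIP-seq experiment on NHR-90, a nuclear hormone receptor, in L1 larvae. They are the 99 genes of biotype snRNA in the Ensembl annotation of genome build WBcel235 (ce11) whose symbols do not begin with sls-, of 46926 annotated genes in all. The 30 sls- genes, which make the spliced leader RNAs, are a class of their own here. The background is the 31563 genes left when the 15363 piRNA genes are set aside, and it includes the 99. A gene was said to have a peak when the summit, the highest point of the peak, fell in a window that begins 1000 bp before the annotated 5′ end and closes 200 bp after it.

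The larvae were hermaphrodites of strain OP483, which carries the transgene wgIs483 and the unc-119(tm4063) mutation on chromosome III. The transgene expresses NHR-90 with a GFP-FLAG tag at its C terminus, and chromatin was sonicated and precipitated with an antibody against GFP. Both replicates belong to 1 group, starved L1 larvae collected 6 h after synchronization, and are 2 biological replicates of whole animals, so that a peak may come from any cell type. A control library was used to make the lists and was not analysed here. The deposited lists hold 4133 optimal peaks, which passed a test of reproducibility between the replicates, 30000 candidate peaks of the pooled replicates, 27854 candidates of replicate 1 and 26708 of replicate 2. The signal value is the authors' own enrichment score for each peak. It ran from 69.42 to 1699.52 with a median of 123.59 in the optimal list, and it is compared here only within a list. With 1 group, no test between groups was possible, and the results are counts and values set beside those of all genes.

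Small nuclear RNAs are short, abundant RNAs that work inside ribonucleoprotein particles (snRNPs) to splice introns out of pre-mRNA. U1 pairs with the 5′ splice site, U2 pairs with the branch point, and U4, U5 and U6 enter together as a tri-snRNP, after which U6 takes the place of U1 at the 5′ splice site. U1, U2, U4 and U5 are made by RNA polymerase II from promoters that bind the complex SNAPc, bind a ring of Sm proteins and have their 3′ ends cut by Integrator. U6 is made by RNA polymerase III and binds LSm proteins instead. SmY RNAs are found in nematodes, bind Sm proteins and are linked to the trans-splicing of spliced leaders.

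Families were assigned from gene names or from short landmarks and sequence identity in the RNA itself, which gave 13 U1, 20 U2, 5 U4, 12 U5, 24 U6 and 10 SmY genes and left 15 others. The genes with the strongest peak of U1 and U4, and the SmY gene with a peak at its 5′ end, encode the following RNAs, given as DNA of the gene's own strand from the 5′ end in the RefSeq genome of build WBcel235, with the landmark in capitals. The capitals mark the stretch of U1 that pairs with the 5′ splice site, a stretch near the start of U4 and the SmY site for Sm proteins.
sup-6 (U1, chrII:12944803-12944967, minus strand): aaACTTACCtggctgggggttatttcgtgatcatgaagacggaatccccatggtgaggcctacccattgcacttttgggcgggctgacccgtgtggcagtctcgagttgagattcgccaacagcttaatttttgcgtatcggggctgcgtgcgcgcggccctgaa
C52E4.8 (U4, chrV:11980118-11980261, plus strand): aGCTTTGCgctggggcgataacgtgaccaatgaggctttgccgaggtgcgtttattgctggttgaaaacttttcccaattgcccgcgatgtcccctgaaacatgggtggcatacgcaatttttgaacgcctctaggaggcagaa
smy-9 (SmY, chrIV:13602202-13602278, plus strand): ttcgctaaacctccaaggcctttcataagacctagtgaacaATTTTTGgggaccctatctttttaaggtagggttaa

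The site for Sm proteins, searched as ATTTTTG on the gene's strand, was found in 13 of 13 U1, 19 of 20 U2, 5 of 5 U4, 11 of 12 U5 and 10 of 10 SmY genes, in 0 of 24 U6 genes and in 1 of the 15 others. The copies within a family are near-identical: 14 of the U6 genes and 7 of the U2 genes have the same sequence from end to end. Of the 99 genes, 48 lie in introns of coding genes, 39 outside coding genes, 5 in untranslated exons and 7 over coding exons. Of the 7 over coding exons, 6 are antisense to genes of the cytochrome P450 family cyp-34A, and none of the 7 had an optimal peak, a count too small to set apart from the 14.0% of all genes with one.

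Optimal peaks were found at 24 of the 99 snRNA genes, or 24.2%, and at 14.0% of all genes except piRNAs. With the summit required to lie within 200 bp of the 5′ end on either side, the share was 23.2% of the snRNA genes (23 of 99), against 7.89% of all genes. The snRNA share was thus above the background at both distances, and it changed little as the window narrowed. In other classes of genes for small RNAs the share was higher, at 15 of 30 sls- genes, 39.3% of snoRNA genes and 51.9% of tRNA genes, and in coding genes it was 14.6%. These shares were compared as a description, and no test was made of their difference.

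**Figure D1:**
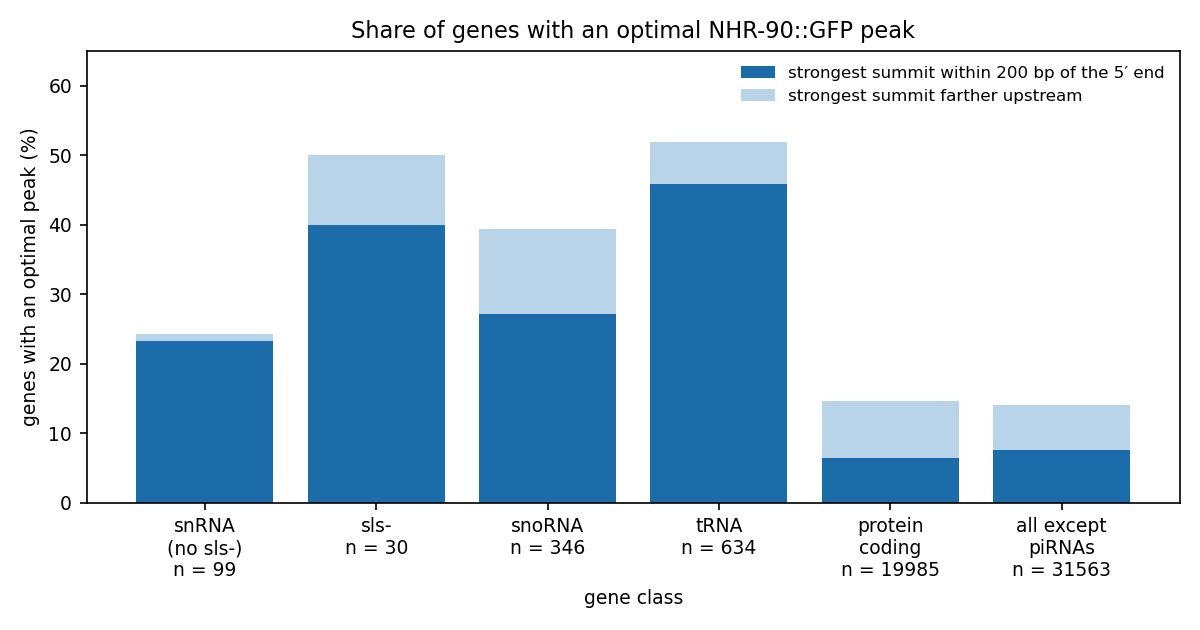
The percentage of genes with an optimal NHR-90::GFP peak is plotted for 6 gene classes, with the part of each bar whose strongest summit lies within 200 bp of the 5′ end in dark blue and the part with a summit farther upstream in light blue. At snRNA genes, 24.2% had an optimal peak and nearly all of the bar is dark, against 14.0% of all genes except piRNAs, where 54.5% of the peaks lie within 200 bp.

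The strongest peaks of the 24 genes were 23 distinct peaks. The U1 gene sup-39 shares its peak with mir-1831, which lies inside it and is annotated as an snRNA of 22 bp despite its name. F32B5.9, F08G2.10, F54D8.7, F38E11.10, C52E4.8, T08G5.11 and F08H9.10 each had 2 optimal peaks in the window, and the stronger is the one counted here and below. The signal of the strongest peaks ran from 73.56 to 848.9 with a median of 214.79, against a median of 142.56 over all genes with an optimal peak. The median peak at an snRNA gene stood at percentile 77.12 of the optimal list, against 58.95 over all genes. At snoRNA genes the median signal was 218.59 and at tRNA genes 136.87. The snRNA peaks were therefore close to the snoRNA peaks in strength, and the weakest of them lay near the bottom of the optimal list.

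Within the families, optimal peaks were found at 6 of 13 U1, 3 of 20 U2, 1 of 5 U4, 5 of 12 U5, 5 of 24 U6, 2 of 10 SmY and 2 of 15 other genes, against 14.0% of all genes. In percent, U1 had 46.2 and U5 41.7, while U2 with 3 of 20 and the others with 13.3 were near the background. No family had a peak at every copy, and each had a peak at 1 copy or more. The strongest peak of a family varied from 848.9 in U1 to 116.2 in SmY.

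**Figure D2:**
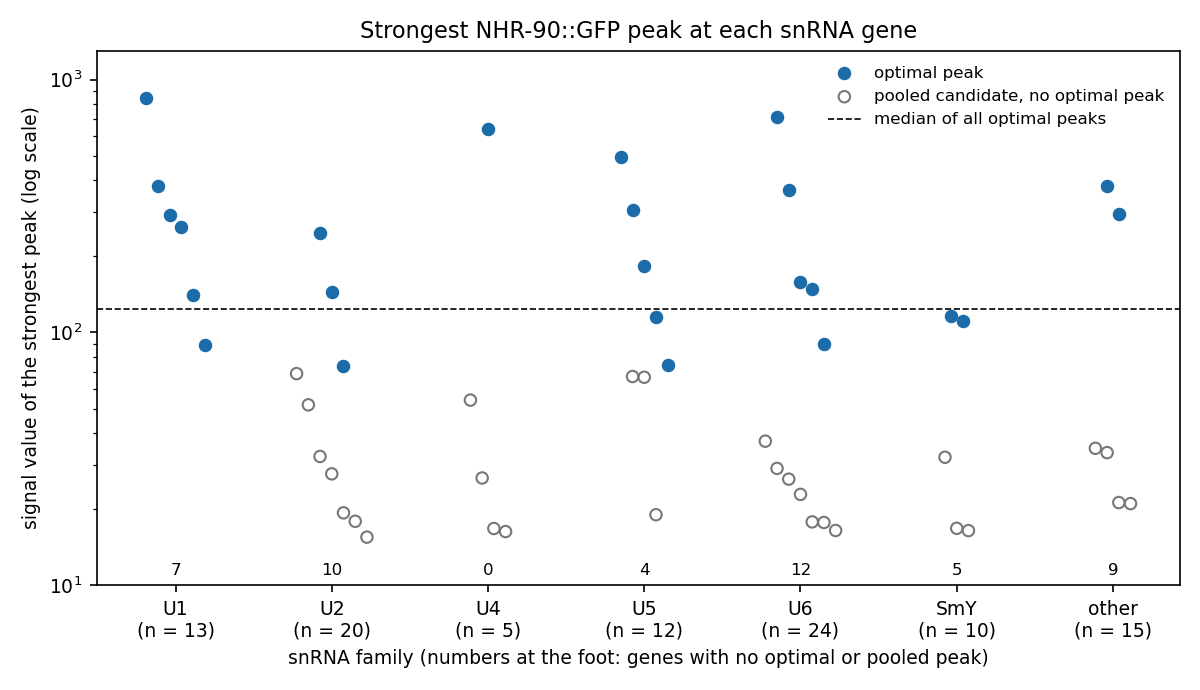
The signal value of the strongest peak at each gene (log scale) is plotted by snRNA family, with optimal peaks as filled points, pooled candidates of genes without an optimal peak as open points, and the count of genes with neither at the foot. Filled points spread from 89.5 to 848.9 in U1, and the dashed line is the median of all optimal peaks, 123.59.

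U1 held the strongest of the peaks. At sup-6, named for its suppressor alleles, the signal was 848.9 with the summit 6 bp inside the gene, and the peak ranked 56 in replicate 1 and 23 in replicate 2, with signals of 388.5 and 451.4 in those lists. The gene lies in an intron of F58G1.7, and the nearest 5′ end of a coding gene is 3297 bp from the summit. At sup-39, the other U1 gene named for suppressor alleles, the signal was 380.0 with the summit at +20 bp, ranking 421 in replicate 1 and 232 in replicate 2. Both suppressor genes thus had peaks over the start of the RNA in both replicates. T08G5.11 had a signal of 292.4 at +161 bp and ranked 550 in replicate 1, while no candidate of replicate 2 overlapped that peak. The strongest replicate 2 candidate in the gene's window ranked 541 and had its summit at +2 bp. That +161 bp summit is the stronger of 2 optimal peaks in the window of T08G5.11. F08H9.11 had 262.0 at −34 bp, with ranks of 675 and 692 in replicates 1 and 2. H27M09.6 had 140.5 at +43 bp, with ranks of 2342 and 1422 in replicates 1 and 2. The F08H9.11 and H27M09.6 summits stand near the start of the RNA, and that of T08G5.11 stands near its end. F08H9.10 had 89.5 at +183 bp, with ranks of 3003 and 2800 in replicates 1 and 2. The F08H9.10 summit lies beyond the 3′ end of the RNA, 169 bp from the 5′ end of the heat shock gene hsp-16.20.

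Among the 5 U4 genes, only C52E4.8 had an optimal peak. The stronger of its 2 peaks had a signal of 635.4 and the summit at −42 bp. It ranked 100 in replicate 1 and 78 in replicate 2. The same peak lies 353 bp upstream of snr-4, the gene for the Sm protein SmD2, so that it fell in the windows of an snRNA gene and of a gene for a protein of the ring that the RNA binds. The data cannot tell apart which of the genes the peak belongs to. The other 4 U4 genes had pooled candidates and no optimal peak, including T11F9.15, whose sequence is the same as that of C52E4.8.

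In U5, 5 genes had an optimal peak. F38E11.10 was the strongest, with 494.8 at −24 bp, ranks of 274 in replicate 1 and 125 in replicate 2, and the 5′ end of the coding gene F38E11.9 at 578 bp. F32B5.9 followed with 304.7 at −21 bp, ranking 473 and 548 in replicates 1 and 2. Both summits lie just upstream of the 5′ end. The other 3 had their summits inside the gene, with 182.5 at +93 bp for F42C5.12, 115.1 at +112 bp for ZK897.4 and 74.1 at +114 bp for F07C6.5. Their ranks in replicates 1 and 2 were 1137 and 1174 at F42C5.12, 2789 and 2190 at ZK897.4, and 3644 and 4225 at F07C6.5, the weakest of the 5 in both replicates. F38E11.11 has the same RNA sequence as F38E11.10, and its strongest pooled candidate had a signal of 66.5 at −22 bp, ranking 4160 in replicate 1 and 4768 in replicate 2. The replicate 2 candidate of F38E11.11 also had its summit at −22 bp, whereas that of replicate 1 lay beyond the 3′ end of the RNA. In the other pair with the same sequence, ZK897.2 had a pooled candidate of 19.018 at −17 bp, against the optimal peak of F07C6.5 at +114 bp. In both pairs the RNAs are identical and the peaks differed in strength.

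U6 peaks were alike in position. W05B2.8 had a signal of 712.3 at −29 bp and ranked 62 in both replicates, with signals of 375.3 in replicate 1 and 336.3 in replicate 2. It lies in an intron of dhc-4, a dynein heavy chain gene, and the nearest 5′ end of a coding gene is 1777 bp from the summit. F54D8.7 had 367.3 at −26 bp, R07E5.16 had 157.7 at −50 bp, Y9C9A.111 had 148.7 at −37 bp and C28A5.7 had 90.4 at −59 bp. The strongest summit of each of the 5 genes lay upstream, between −59 and −26 bp. The candidates that overlapped these 5 peaks had their summits upstream in both replicates as well. Ranks in replicates 1 and 2 were 272 and 382 at F54D8.7, 1659 and 1228 at R07E5.16, 1467 and 1865 at Y9C9A.111, and 3414 and 2889 at C28A5.7. W05B2.8 was the strongest of the 5 and C28A5.7 the weakest in each replicate, and 1 of the 5 peaks was also in the window of a coding gene, cox-6A at F54D8.7. Of the 14 U6 genes with the same sequence, 4 had an optimal peak, 2 a pooled candidate only, 2 a candidate of a replicate only and 6 no peak in any list. The 6 include 5 of the K09B11 genes, a cluster of U6 copies in an intron of mam-3.

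In U2, the family with 20 genes, 3 genes had an optimal peak. F08G2.10 had the strongest, with 247.1 at −14 bp, ranks of 711 in replicate 1 and 780 in replicate 2, and a further summit of 243.6 at +196 bp. The replicate 1 candidate of that rank had its summit at +200 bp and the replicate 2 candidate at −4 bp, so the replicates put the stronger summit on different sides of the gene. F08G2.11 had 144.9 at +199 bp, with ranks of 1712 and 1768 in replicates 1 and 2, and F56H6.14 had 73.6 at +91 bp. F56H6.14 ranked 5723 in replicate 1 and 3632 in replicate 2, so in replicate 1 it lay below the 4133 strongest candidates. All 3 stood in sequence that is repeated elsewhere in the genome, as described further on.

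SmY had 2 optimal peaks. smy-4 had 116.2 at −417 bp, the farthest upstream of the strongest summits at snRNA genes, and smy-9 had 111.3 at +5 bp. Ranks in replicates 1 and 2 were 2340 and 2204 at smy-4 and 2357 and 2740 at smy-9, so the 2 genes were close in strength in each replicate. Both peaks were also in the window of a coding gene, D1086.8 at smy-4 and Y45F10B.59 at smy-9. Among the 15 others, M163.13 on chromosome X, of no family assigned here, had 293.6 at −42 bp and ranked 505 in replicate 1 and 531 in replicate 2. The nearest 5′ end of a coding gene is 2553 bp from its summit. mir-1831, with the peak of sup-39, is the other.

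**Figure D3:**
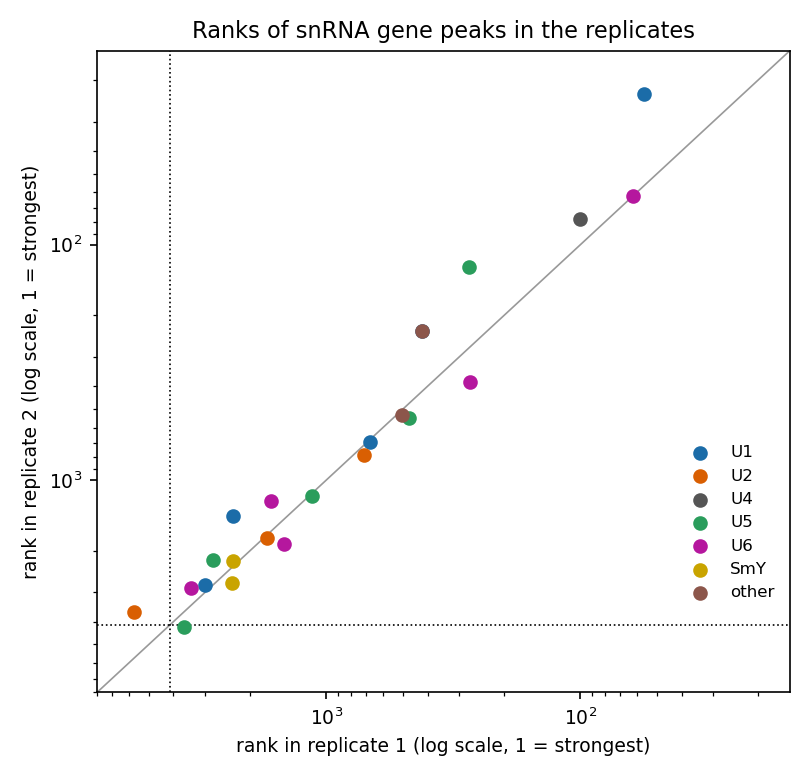
The rank of the replicate 1 candidate (horizontal) is plotted against that of the replicate 2 candidate (vertical) that overlaps the peak, for 23 snRNA genes, both on log scales with stronger peaks toward the top right; the grey line marks equal ranks and the dotted lines mark rank 4133, the length of the optimal list. The points lie along the line from sup-6 at ranks 56 and 23 to F56H6.14 at ranks 5723 and 3632, and the points of sup-39 and mir-1831 coincide.

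The replicates gave much the same genes. When the strongest peaks of each replicate were taken, as many as the optimal list holds, 23 snRNA genes had one in replicate 1 and 23 in replicate 2, and 21 had one in both, all of them among the 24. Over all genes except piRNAs, 11.7% had one in both, beside 14.0% with an optimal peak. The optimal peaks were chosen for reproducibility between these same replicates. Their likeness at the 24 genes was thus in part set in advance and is not particular to snRNA genes. The 3 genes missing from the 21 are F08G2.11 and F56H6.14, which lacked one in the window in replicate 1, and F07C6.5, which lacked one in replicate 2. At F08G2.11 the replicate 1 candidate that overlapped the peak ranked 1712, but its summit at +204 bp fell just outside the window. The peak ranked higher in replicate 2 at 12 genes and in replicate 1 at 10. Without any limit on strength, candidates of replicate 1 lay in the windows of 53.5% of the snRNA genes, against 41.5% of all genes, and those of replicate 2 in 49.5%, against 39.9%.

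The strongest summits of the 24 genes were close to the 5′ ends. Their distance ran from −417 to +199 bp with a median of −4.5 bp at snRNA genes, against −171.0 bp over all genes with an optimal peak, −57.0 bp at snoRNA genes and −21.0 bp at tRNA genes. The strongest summit lay within 200 bp at 95.8% of the snRNA genes with a peak (23 of 24) and at 54.5% of all genes with one. Of the 24 summits, 12 lay upstream of the gene, 10 inside it and 2 beyond its 3′ end. They fell into a tight set and a displaced one: 16 lay within 60 bp of the 5′ end on either side, and 7 lay 90 bp or more downstream, all of these in U1, U2 and U5. At most of the 7 the replicates put the summit at different places. At F08H9.10 it was at +35 bp in replicate 1 and +171 bp in replicate 2. In the same order it was at −13 and +111 bp at F07C6.5, and at +204 and +38 bp at F08G2.11. It was at +51 and +138 bp at F42C5.12, and at +84 and +46 bp at F56H6.14. No replicate 2 candidate overlapped the peak of T08G5.11. Only at ZK897.4 did both replicates put the summit at the same place, +112 bp. Because the snRNA genes are short, a summit 90 bp or more downstream is near or past the end of many of them. Coding genes also began near most of the 7 summits. The nearest 5′ end of a coding gene was 151 bp away at F56H6.14, 169 bp at F08H9.10, 197 bp at F07C6.5 and 210 bp at ZK897.4. It was 278 bp away at F42C5.12, 682 bp at F08G2.11 and 990 bp at T08G5.11. Which gene these peaks belong to was not tested.

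**Figure D4:**
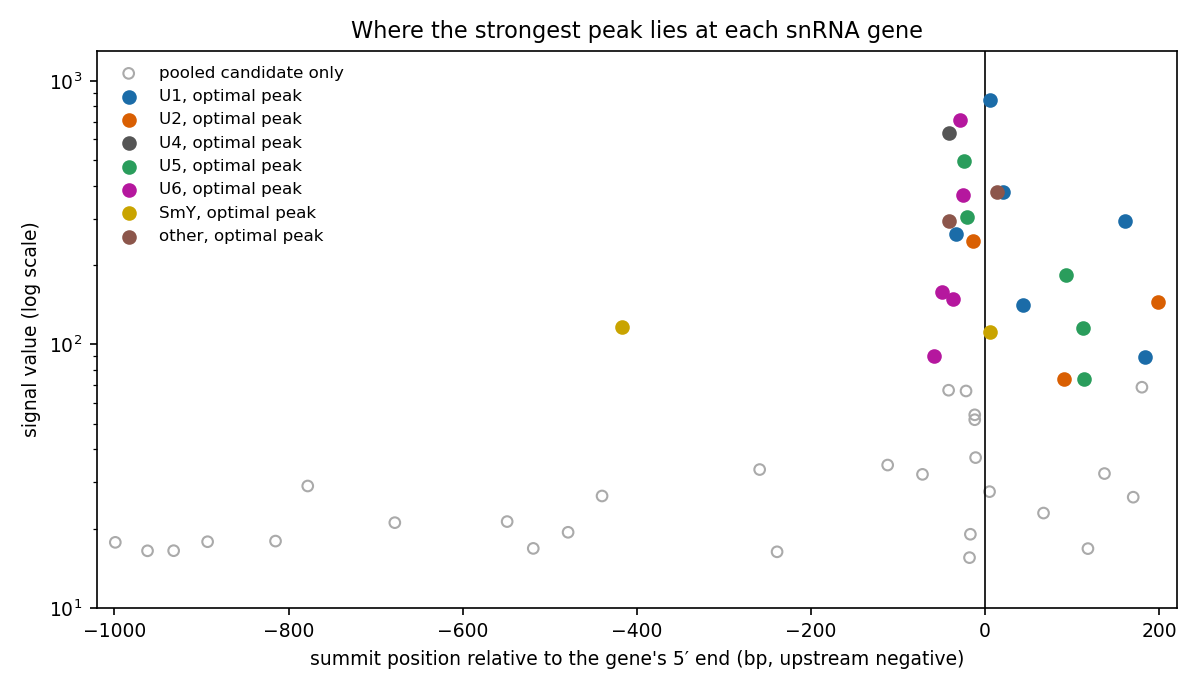
The position of the strongest summit relative to the 5′ end (bp, upstream negative) is plotted against its signal (log scale), with optimal peaks coloured by family and the pooled candidates of the other genes as open points. The optimal summits gather around the 5′ end, with smy-4 alone at −417 bp, whereas the pooled candidates of 30 or less in signal are spread over the window.

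A summit between an snRNA gene and a coding gene counts for both. Of the 24 genes, 15, or 62.5%, had a peak that was also in the window of a coding gene, against 39.9% of the 1497 genes other than coding genes and piRNAs that had an optimal peak. The share was 50.7% at snoRNA genes and 24.3% at tRNA genes. The number of snRNA genes with a peak in no coding window depended on the window's length: it was 9 of 24 with 1000 bp upstream, 16 of 24 with 500 bp and 20 of 23 with 200 bp. The 9 whose peak was in no coding window were sup-6, W05B2.8, F32B5.9, M163.13, F42C5.12, R07E5.16, Y9C9A.111, F08G2.11 and C28A5.7. At 4 of these, sup-6, W05B2.8, M163.13 and C28A5.7, the nearest 5′ end of a coding gene was more than 1000 bp from the summit. Genes of biotype ncRNA had the peak in their windows at many of the 24 as well. Among them were F58G1.11 and F58G1.12 at sup-6, M163.12 and M163.15 at M163.13, and C28A5.9 at C28A5.7. At W05B2.8 no other gene did, piRNAs aside. Closest to the limits of the window, on the inside, were F08G2.11 at +199 bp, F08G2.10 with its further summit at +196 bp and F32B5.9 with a further summit of 187.1 at +185 bp. Just outside were smy-1 with a summit of 316.3 at +351 bp, B0213.24 with 79.2 at −1340 bp and smy-10 with 111.3 at +571 bp, the last being the peak of smy-9.

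The 75 genes without an optimal peak were not all without signal. Pooled candidates were found at 52 of the 99 genes, or 52.5%, against 42.4% of all genes, and within 200 bp of the 5′ end at 38.4% (38 of 99), against 24.0%. Of the 75, 28 had a pooled candidate, 16 had a candidate in the list of a replicate only and 31 had no peak in any list. The 10 pooled candidates with a signal over 30 lay within 200 bp of the 5′ end in 9 cases, and the 18 of 30 or less in 6. Most of the stronger candidates thus lay near the 5′ end, as the optimal summits did. No such split by signal is given here for all genes, so it is not read as particular to snRNA genes.

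The strongest of these candidates belonged to U2, U5 and U4 genes. F11A5.14 (U2) had 68.7 at +180 bp, C53D6.12 (U5) had 67.0 at −42 bp and F38E11.11 (U5), described above, had 66.5, all just under the lowest optimal signal of 69.42. F10D2.13 (U4) had 54.01 at −12 bp and W04G5.11 (U2) had 51.7 at −12 bp. These 5 had a candidate in the window in both replicates, the strongest ranking from 4067 to 7037. At F10D2.13 that of replicate 2 had its summit at +139 bp, away from the pooled summit. F54C8.10 (U6) had 37.2 at −11 bp, ZK1251.14 (other) had 34.8 at −112 bp and T10H4.16 (other) had 33.5 at −259 bp. T10H4.16, antisense to cyp-34A1, had no candidate in replicate 2.

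The 31 genes with no peak in any list came from every family but U4. They were 9 U6 genes, among them F35C11.9, F36A4.23, F54C8.8, K09B11.11 and K09B11.12, and 8 others, among them B0213.21, B0213.22, B0213.24, C35D6.6 and C41G6.17. A further 6 were U2 genes, among them C05G6.4, F15H9.5, F15H9.6, W07G1.24 and W07G1.8. The U1 genes were C27H5.11, T27E4.10 and T27E4.11, the SmY genes smy-5, smy-6 and smy-7, and the U5 genes C53B4.9 and C53D6.16. The absence of a peak says that none was called by the authors' procedure, not that NHR-90 is absent there.

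The promoters of the 2 kinds of genes were read to see what they share. The sequences below are the 80 bases just before the 5′ end in WBcel235, on the strand of the gene, and the capitals mark words that many snRNA promoters hold at the same place: AACCCG with its first base near −57, TGTCGG near −46 and TATATA near −30, each within 2 bp. First come genes with an optimal peak.
sup-6 (U1, chrII:12944968-12945047, minus strand): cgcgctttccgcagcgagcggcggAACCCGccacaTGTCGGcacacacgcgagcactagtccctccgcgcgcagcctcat
F38E11.10 (U5, chrIV:9444562-9444641, plus strand): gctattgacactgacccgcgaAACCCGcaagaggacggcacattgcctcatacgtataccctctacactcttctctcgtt
C52E4.8 (U4, chrV:11980038-11980117, plus strand): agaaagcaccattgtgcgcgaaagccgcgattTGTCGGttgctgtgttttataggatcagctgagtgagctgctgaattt
F08G2.10 (U2, chrII:13829492-13829571, minus strand): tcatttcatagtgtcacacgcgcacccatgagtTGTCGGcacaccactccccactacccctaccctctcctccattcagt
W05B2.8 (U6, chrIII:10989599-10989678, plus strand): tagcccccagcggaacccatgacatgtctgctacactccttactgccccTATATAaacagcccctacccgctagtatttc
M163.13 (other, chrX:14476787-14476866, plus strand): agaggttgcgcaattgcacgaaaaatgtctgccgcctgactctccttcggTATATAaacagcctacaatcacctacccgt
Next come a gene with a pooled candidate only, F10D2.13, and genes with no peak in any list.
F10D2.13 (U4, chrV:7142859-7142938, minus strand): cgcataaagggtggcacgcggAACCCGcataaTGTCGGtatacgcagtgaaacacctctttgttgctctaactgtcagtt
T27E4.11 (U1, chrV:9087022-9087101, minus strand): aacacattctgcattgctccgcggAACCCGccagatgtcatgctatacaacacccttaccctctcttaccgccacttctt
C53B4.9 (U5, chrIV:8994668-8994747, plus strand): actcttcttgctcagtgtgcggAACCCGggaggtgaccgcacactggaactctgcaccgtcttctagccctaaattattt
K09B11.11 (U6, chrIV:13435887-13435966, minus strand): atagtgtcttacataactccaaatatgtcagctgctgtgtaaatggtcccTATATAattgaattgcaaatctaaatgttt
F54C8.8 (U6, chrIII:9445831-9445910, plus strand): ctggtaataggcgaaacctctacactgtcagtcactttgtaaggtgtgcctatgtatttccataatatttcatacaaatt

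Taken as exact matches at these places, the shared words divided the families. Near matches and other places were not counted, such as tgtctg in the printed promoters of W05B2.8 and M163.13. The families may therefore share more than the exact words show. AACCCG stood at its place in 7 of 13 U1, 11 of 12 U5, 6 of 10 SmY and 1 of 5 U4 promoters, in 0 of 20 U2 and 0 of 24 U6 promoters, and in 0.219% of the promoters of all genes. TGTCGG stood at its place in 7 U1, 15 U2, 3 U4 and 3 U5 promoters, and in 0.225% of all promoters. TATATA stood at its place in 16 of 24 U6 promoters, in 1 SmY promoter and at M163.13, and in 0.669% of all promoters. By position of this word, M163.13 resembled the U6 genes, though its RNA does not share their landmark. GCGGAA near −61, which overlaps AACCCG where both are present, stood at its place in 21 of the 87 snRNA promoters in which words were searched. The words were picked because snRNA promoters share them, so their higher share here is not a finding.

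The words did not separate genes with a peak from genes without one. AACCCG stood at its place in 10 of the 24 snRNA genes with an optimal peak, or 41.7%, and in 15 of the 75 without. Within families it was at 4 of 6 U1 genes with a peak and 3 of 7 without, and at 5 of 5 and 6 of 7 U5 genes. In SmY it was at 1 of 2 with a peak and 5 of 8 without, and in U4 at 0 of 1 and 1 of 4. TGTCGG stood at its place in 11 of the 24, or 45.8%, and in 17 of the 75, or 22.7%. TATATA did so in 5 of 5 U6 genes with an optimal peak and in 11 of the 19 without. Each word was thus more frequent where a peak was found and yet present at many genes with none, as the printed promoters of T27E4.11, C53B4.9 and K09B11.11 show.

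Other short words were counted on both strands from 250 bp before to 50 bp after the 5′ end. GAGAGA was found at 37.5% of the 24 genes with an optimal peak, at 6 of the 75 without and at 22.1% of all genes. CACGTG, a palindrome, was found at 0 of the 24, at 12.0% of the 75, 7 of these 9 genes being U2, and at 5.23% of all genes. From 150 bp before the 5′ end, it was found at 3 of the 75 and 3.72% of all genes, so its higher share at the 75 was lost. AGGTCA, a core motif that many nuclear receptors bind, was found at 8.33% of the 24, at 5.33% of the 75 and at 8.59% of all genes. TATAAA was found at 33.3% of the 24, 30.7% of the 75 and 34.2% of all genes. GACGCAG was found at 0 of the 24, 1.33% of the 75 and 3.98% of all genes. GTGTCA was found at 20.8% of the 24, 12.0% of the 75 and 11.2% of all genes. AGGTCA and TATAAA were thus about as common at the 24 as at all genes. A match is a description of letters in a window and names no binding site.

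Near-identical copies bear on how reads can be placed, and the sources used here do not say how reads that fit several places were treated. The repeated share of a gene was the percentage of 36-base words, from 200 bp before to 200 bp after its 5′ end, that occur more than once in the genome. Its median was 25.4% at the 24 genes with an optimal peak, from 0.0 to 72.1%, and 25.4% at the 75 without, from 0.0 to 100%. Over 50% of the words were repeated at 3 of the 24, all U2, and at 16 of the 75, of which 7 were U2 and 7 U6. Inside the gene alone the medians were 97.7% at the 24 and 65.2% at the 75, and upstream they were 0.0% in both. The part of repeated sequence in the presence, strength and displacement of these peaks was not tested.

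Genes for the proteins that make and fill snRNPs were read in the same window. Of the Sm and LSm proteins, which include those of the rings bound by the RNAs, 11 of 15 genes had an optimal peak. The share was 14.0% of all genes and 14.6% of coding genes. The Sm genes were snr-4 (SmD2, the peak shared with C52E4.8) at 635.4, snr-1 (SmD3) at 340.4, snr-2 (SmB) at 127.9, snr-3 (SmD1) at 124.6 and snr-6 (SmE) at 91.0. The LSm genes were gut-2 (LSm2) at 157.4, lsm-3 at 154.6, lsm-6 at 109.0, lsm-1 at 92.7, lsm-7 at 82.7 and lsm-5 at 77.7. The other 4 genes of this list had none. The summit lay within 200 bp of the 5′ end only at gut-2, at −18 bp, and lsm-6, at −175 bp. At the rest it lay farther upstream, from −939 bp at lsm-3 to −216 bp at lsm-7. Of these 11 peaks, those of snr-4 and snr-1 were stronger than the median of 214.79 at the snRNA genes and the other 9 were weaker.

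Of genes for assembly and for proteins of single snRNPs, 6 of 19 had an optimal peak: sftb-1 (the U2 protein SF3B1) at 209.6, snu-66 (a tri-snRNP protein) at 199.5, prp-8 (the core U5 protein) at 176.8, rnp-2 (a U1 protein) at 141.3, snu-13 (a U4 protein) at 137.6 and smn-1 (the SMN assembly factor) at 77.6. Of genes for transcription and 3′ end formation of snRNAs, 6 of 21 had one. Both counts are to be read against 14.6% of coding genes. They were 5 Integrator genes, ints-4 at 820.5, ints-8 at 201.5, ints-9 at 199.5, ints-1 at 160.8 and ints-2 at 138.5, and snpc-3.4, a SNAPc subunit gene, at 110.7. The peak of ints-9 is also that of snu-66. ints-4 stood close to sup-6 in signal.

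On the chromosomes, optimal peaks were found at 3 of 12 snRNA genes on I, 5 of 13 on II, 4 of 7 on III, 6 of 36 on IV, 5 of 28 on V and 1 of 3 on X. Over all genes except piRNAs the share was 17.0% on I, 13.1% on II, 19.1% on III, 13.7% on IV, 9.94% on V and 15.1% on X. With so few snRNA genes on a chromosome, these counts give no order between chromosomes. IV and V hold most of the genes, and copies that lie near each other differed. F08H9.11 had 262.0 and F08H9.10, 5381 bp away, had 89.5. ZK897.4 had 115.1, while ZK897.3, 1009 bp from it, had no optimal or pooled peak. smy-9 had 111.3, and smy-10, 566 bp from it, had a pooled candidate of 16.8.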

How the data were processed

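ChIP-seq peak lists from 2 replicates of 1 group were used, each peak with a summit, a signal value and a −log10 q-value as deposited by the authors; the optimal list has the single value 3.99 in the −log10 q-value column, so peaks were ranked by signal. Per the deposited file listings, replicate lists were made from each replicate and a control, the pooled list from the 2 together, and the optimal peaks were drawn from these by a threshold on reproducibility. The sources used here name neither the aligner nor the peak caller. Read depth is unknown, so no interval could be given.

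Genes came from Ensembl release 115 (WBcel235), symbols from RefSeq by gene ID (99 of 99 matched, 25 renamed because Ensembl repeats names), and sequences from the RefSeq genome of that build, whose chromosome lengths are equal. Scripts in Python 3.11.15 with pandas 2.3.3 assigned summits, ranked peaks and counted words; the assignment was tested on simulated data. Families left unassigned by a landmark needed 70% identity. The strongest optimal peak of each snRNA gene was named, with the 8 strongest pooled candidates of the rest and up to 5 genes per family with no peak. The members, lists and words were chosen with earlier results of these data known. Windows, strength limits and replicates were varied. Peaks lifted to another build were left out.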

Additional observations from a re-analysis of the deposited data

How the results depend on the processing

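Of 119 alternative settings over 23 results, 100 stayed close to the value reported and 19 moved. The count of snRNA genes with an optimal peak stayed within 1.5 times of 24 in every setting tried, from 17 to 27. The median signal was 293.628 with the strongest 50% of the optimal list, 157.698 with a window from 2000 bp upstream, and 247.099 with 200 bp upstream or with any base of the peak in the window. From the replicates' own lists it ranged from 117.259 to 127.798 and the median distance from −21 to 2 bp, signal there being on another scale. That distance was also −21 bp with the strongest 50% and with 2000 bp, and −24.5 bp with each summit given to its nearest 5′ end. Peaks in no coding window numbered 16 with 500 bp and 20 with 200 bp upstream. U5 fell to 3 and SmY to 0 with the strongest 50%, and SmY to 1 with 200 bp. Pooled candidates, 52 in all, were 23 from either replicate's strongest peaks (lowest and highest 23), and with all candidates 38 genes had one in both replicates. CACGTG was at 3.03% of snRNA genes from 150 bp before. The repeated share and the genes for snRNP production had no alternative. No paired analysis was possible because all samples belong to 1 group. The cause of these moves was not tested. Read depth is unknown, and its part in which weak peaks were called was not tested.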
